A study of Mus musculus with 305 samples.

Results

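The nucleus accumbens (NAc) response to heroin re-exposure was taken as the comparison of 8 NAc libraries of group HH with 8 of group HS, identified from the region and group in the sample titles. These are 16 of the 51 NAc libraries of a bulk RNA-seq series on heroin intake and relapse in 6 regions of the reward circuitry of male mice. Mice of both groups were wild-type males that self-administered heroin intravenously for 15 d and then spent 30 d in withdrawal. The HH mice received a heroin challenge and the HS mice a saline challenge, each with a 2 h drug-seeking test. A heroin history is therefore common to both groups, and the difference between them is the drug given on the test day. The SH and SS mice, 8 of each with NAc libraries, had self-administered saline for 15 d and after 30 d received heroin or saline in the same test. SH and SS were used for the spread between mice and as the first-exposure counterpart. The labels give no age, and each mouse supplied 1 NAc library.

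The accumbens is the ventral part of the striatum, built mainly of GABAergic projection neurons that carry D1 or D2 dopamine receptors and that receive dopamine from the midbrain and glutamate from cortex, hippocampus and amygdala. Heroin is converted to morphine, which acts at the mu opioid receptor and raises accumbal dopamine by silencing the inhibitory inputs of dopamine neurons. Acute opioid and psychostimulant exposure is known to induce activity-dependent immediate early genes in striatal neurons, opioids also engage the adrenal glucocorticoid axis, and a primed return to drug seeking is the usual animal model of relapse.

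The HH libraries held 22.8 to 37.0 M gene counts and the HS libraries 26.3 to 38.6 M, so depth overlapped between the groups. Levels are given as CPM, counts scaled to the size of each library after TMM normalization, which are not corrected for transcript length, so levels of different genes are not compared. Striatal identity was plain in the libraries. The mean level of 15 striatal projection neuron markers, such as Ppp1r1b (DARPP-32) and Pde10a, was 9.08 to 9.33 log2 CPM in HH and 8.98 to 9.35 in HS. A list of 14 excitatory neuron markers held many cortical genes, which the accumbens itself should hold little of. Some members, such as Camk2a (526.2 to 967.2 CPM in HH and 494.8 to 879.6 in HS), were abundant in every library. The list was present unevenly: its mean level was 1.91 to 4.74 log2 CPM in HH and 1.73 to 3.88 in HS. It was 3 or more in 3 libraries of each group, and the lowest of these, an HS library, stood at 3.02, with the next below at 2.40 in an HH library. In bulk tissue, fewer cells of a type and less RNA per cell cannot be told apart.

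No gene reached significance. Of 19756 genes tested with edgeR's quasi-likelihood test over the 32 libraries of the 4 groups, 0 (0%) had an adjusted p under 0.05, and the smallest Benjamini-Hochberg adjusted p was 0.9998. An unadjusted p under 0.05 was found for 533 genes, or 2.7%, with 1.33% of all genes tested on the higher and 1.37% on the lower side in HH, and DESeq2 also called 0 genes, with 598 at an unadjusted p under 0.05. The unadjusted share lay below the 5% that a threshold of 0.05 gives in the absence of any difference. Values below are therefore descriptions of the direction and size of differences, with unadjusted edgeR p-values, and none of the genes described in HH against HS passed the adjusted threshold. Over all genes tested, 49% were higher in HH and the median log2 difference was 0.00 (log2 differences are HH minus HS, with the standard error of the fit).

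Among genes with a symbol other than a model name and a mean level of 1 CPM or more, the one with the smallest p was a chaperone. A smaller p (6.36e-05, adjusted p 0.9998) belonged to a predicted small RNA, Gm26315, which ran from 3.65 through a median of 16.3 to 701.9 CPM in HS and from 2.25 through 9.67 to 21.8 CPM in HH, so that its mean in HS rested on a few libraries. Dnajb1, which encodes an Hsp40 co-chaperone that delivers unfolded proteins to Hsp70 (ENSMUSG00000005483, chr8:83608193-83612653, GRCm38), ran from 66.4 through a median of 74.5 to 100.4 CPM in HH and from 44.5 through 62.9 to 73.2 CPM in HS. All 8 HH libraries were above the HS mean and 4 were above the highest HS library. Its log2 difference was 0.34 ± 0.09 (SE, n = 8 and 8), a ratio of 1.26, with an unadjusted edgeR p of 0.000336 and an adjusted p of 0.9998.

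Other heat shock genes lay on the same side. Heat shock proteins are chaperones that refold or dispose of misfolded proteins, and many of their genes are known targets of the transcription factor HSF1. Of the 20 genes of a list of heat shock and cold-inducible genes, all tested, 18 were higher in HH and 6 of these had an unadjusted p under 0.05 (background 1.33% for higher genes), with a median log2 difference of 0.12 against 0.00 over all genes. The 2 that were lower were Cirbp and Rbm3, the cold-inducible RNA-binding proteins on the list, at -0.16 and -0.04. The mean level of the list was 6.44 to 6.79 log2 CPM in HH and 6.20 to 6.47 in HS, and 6 of the 8 HH libraries lay above every HS library. The promoters of listed members with the lowest p are shown because many heat shock genes are known targets of HSF1. They are the 250 bases before the RefSeq start (GRCm38.p6), 5′ to 3′, with capitals marking GAANNTTC or TTCNNGAA, the head-to-head and tail-to-tail pairs of the unit that HSF1 binds:
Hspb1 promoter, chr5:135887669-135887918, plus strand: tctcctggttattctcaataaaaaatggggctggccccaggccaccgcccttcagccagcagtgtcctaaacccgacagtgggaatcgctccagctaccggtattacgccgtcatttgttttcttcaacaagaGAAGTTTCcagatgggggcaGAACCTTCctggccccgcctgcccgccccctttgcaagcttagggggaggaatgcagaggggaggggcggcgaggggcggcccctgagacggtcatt
Hspa1a promoter, chr17:34972157-34972406, minus strand: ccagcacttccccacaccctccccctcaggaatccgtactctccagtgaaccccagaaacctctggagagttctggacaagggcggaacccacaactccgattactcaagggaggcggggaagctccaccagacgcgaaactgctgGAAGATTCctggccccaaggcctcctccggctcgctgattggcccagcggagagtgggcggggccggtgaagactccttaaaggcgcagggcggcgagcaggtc
Fkbp4 promoter, chr6:128438657-128438906, minus strand: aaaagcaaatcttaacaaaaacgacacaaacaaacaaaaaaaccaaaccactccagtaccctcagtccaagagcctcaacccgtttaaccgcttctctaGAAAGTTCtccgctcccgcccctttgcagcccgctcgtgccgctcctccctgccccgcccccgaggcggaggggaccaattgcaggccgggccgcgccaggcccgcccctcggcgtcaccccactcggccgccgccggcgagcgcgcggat
Hsph1 promoter, chr5:149636337-149636586, minus strand: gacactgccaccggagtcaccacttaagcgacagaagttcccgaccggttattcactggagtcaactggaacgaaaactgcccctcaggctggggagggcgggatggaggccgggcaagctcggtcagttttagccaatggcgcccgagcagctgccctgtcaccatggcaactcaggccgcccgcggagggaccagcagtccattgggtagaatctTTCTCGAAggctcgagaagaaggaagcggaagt
Dnajb1 promoter, chr8:83607925-83608174, plus strand: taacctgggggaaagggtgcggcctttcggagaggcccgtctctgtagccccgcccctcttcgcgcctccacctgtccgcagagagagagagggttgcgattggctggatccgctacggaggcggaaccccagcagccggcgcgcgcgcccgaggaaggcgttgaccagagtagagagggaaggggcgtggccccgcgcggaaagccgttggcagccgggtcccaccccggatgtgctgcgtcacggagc
No pair was found in the Dnajb1 window, and that of Hspa1b, nearly identical to that of Hspa1a, is not shown. A promoter was matched for 16 of the 20 listed genes, and 6 of them (37.5%) held GAANNTTC, against 6.14% of the 12604 tested genes with a promoter. TTCNNGAA was held by 3 of the 16 (18.8%), against 7.19%. The longer GAANNTTCNNGAA, which contains both pairs, was held by 2 of the 16, Hspd1 and Hspe1, which share the stretch between their starts, against 0.484%. Both strands were searched, and a match is a string of letters, not a measured binding site.

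Hspb1, the small heat shock protein Hsp27 (chr5:135887919-135889563), measured 7.00 to 17.4 CPM in HH with a median of 11.9, and 5.91 to 10.1 CPM in HS with a median of 8.13. The groups overlapped through 2 low HH libraries, while the other 6 exceeded all HS libraries. The log2 difference was 0.56 ± 0.16 with an unadjusted p of 0.00127. The inducible Hsp70 genes Hspa1a and Hspa1b lie next to each other on chromosome 17, and their promoter windows differ at 3 of 250 positions. Because the genes are near-identical copies, reads cannot be assigned between them with certainty. Hspa1a measured 2.06 to 10.3 CPM in HH with a median of 3.08, and 1.47 to 3.91 CPM in HS with a median of 1.86. Hspa1b measured 5.76 to 20.8 CPM in HH with a median of 8.66, and 3.02 to 10.0 CPM in HS with a median of 5.28. Both distributions overlapped between the groups, and the highest value of each came from HH mouse 25. The log2 differences were 0.82 ± 0.29 for Hspa1a (unadjusted p = 0.00727) and 0.77 ± 0.26 for Hspa1b (0.00584), and without mouse 25 they were 0.46 (p = 0.0827) and 0.52. In the mice of set 1 alone (a code prefix in the labels, 6 HH and 6 HS mice) they were 0.37 (p = 0.216) and 0.51 (p = 0.102).

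Fkbp4 and Hsph1 were the other members with an unadjusted p under 0.05. Fkbp4 (FKBP52, an Hsp90 co-chaperone of steroid receptors) had a log2 difference of 0.16 ± 0.07 and Hsph1 (Hsp110, which recycles Hsp70) one of 0.25 ± 0.12, with unadjusted p-values of 0.0256 and 0.0442. Hsph1 ran from 197.9 to 311.4 CPM in HH and from 182.3 to 291.6 CPM in HS, so its groups overlapped widely. The constitutive Hsp70 gene Hspa8 differed by 0.10 ± 0.07 (p = 0.162) and Hsp90ab1 by 0.17 ± 0.09 (p = 0.0604). Without HH mouse 25 the list still had 18 of 20 genes higher, with 3 at an unadjusted p under 0.05.

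**Figure D1:**
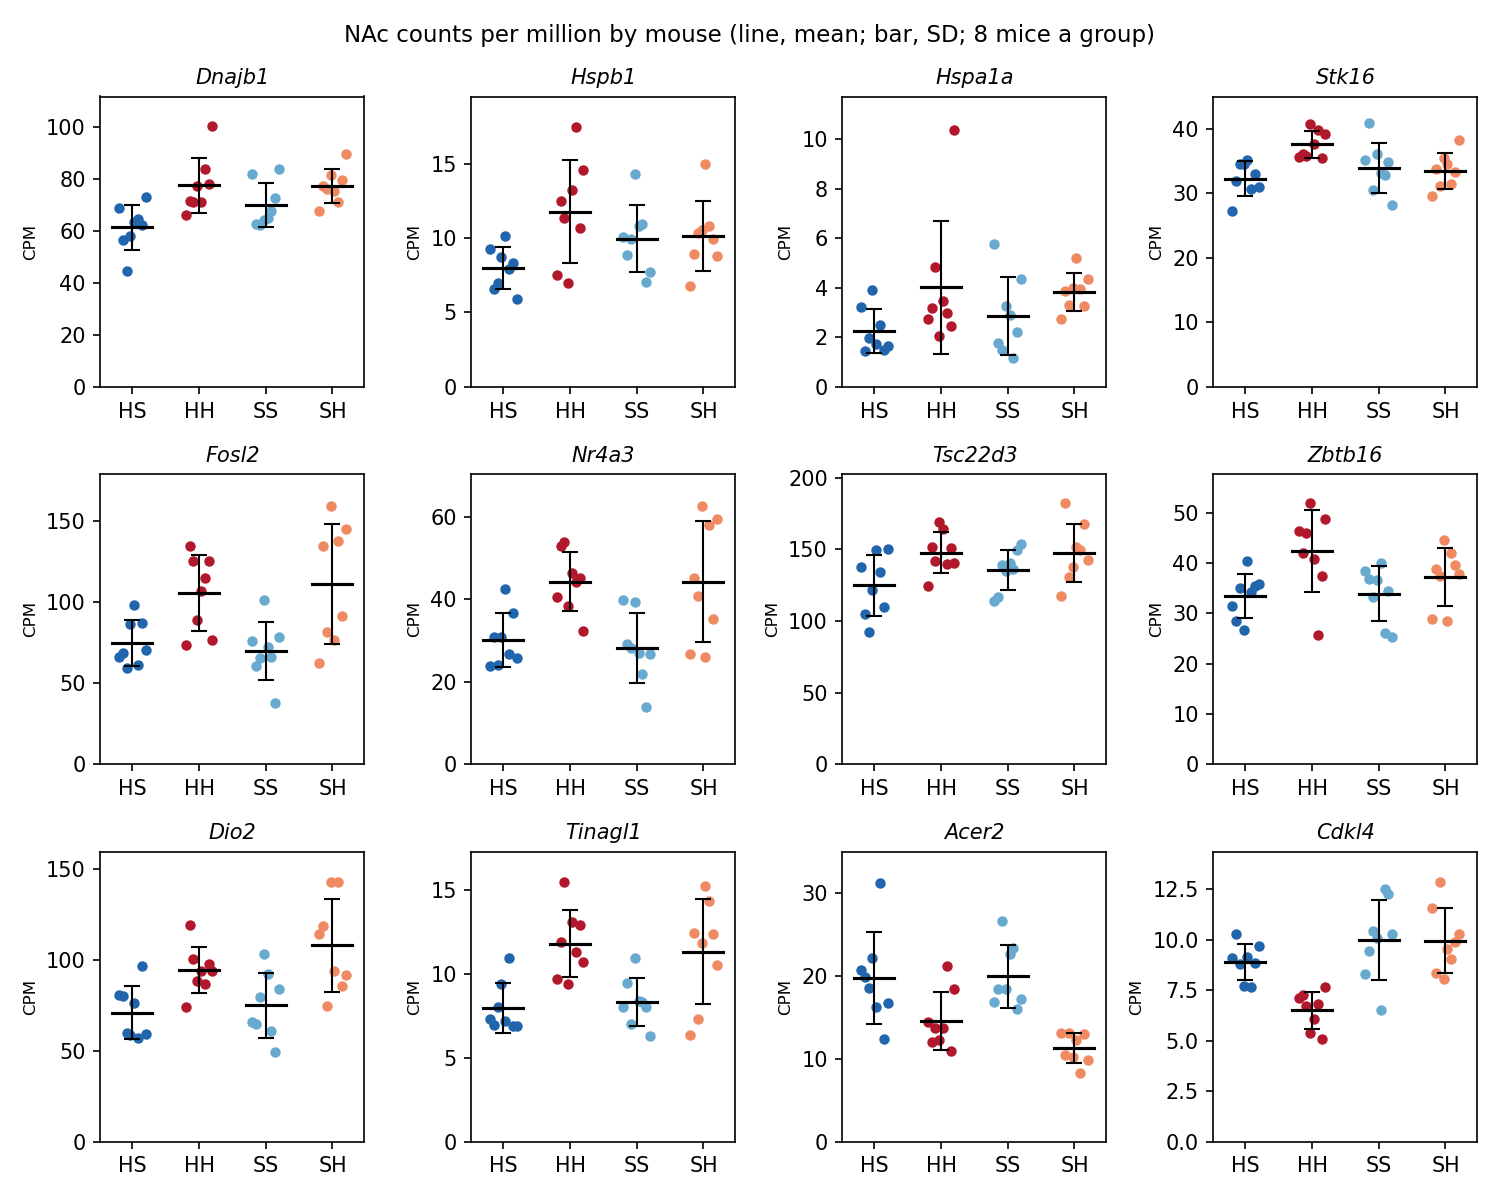
NAc level in CPM of 12 genes in each mouse of HS, HH, SS and SH (8 points a group; line, mean; bar, SD; linear axes from 0). Dnajb1 in HH lay between 66.4 and 100.4 CPM and in HS between 44.5 and 73.2 CPM, and Stk16 is the gene whose HH and HS points do not overlap.

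Immediate early genes, whose transcription follows neuronal firing with little delay and many of which encode transcription factors, were another list with many members on the higher side. Of 36 genes tested, 31 were higher in HH and 7 had an unadjusted p under 0.05, all 7 of them higher, with a median log2 difference of 0.23 (background 1.33% for higher genes, with 49% of all genes on the higher side). The list's mean level was 3.86 to 4.52 log2 CPM in HH and 3.53 to 4.18 in HS. The groups overlapped, and 3 HH libraries exceeded every HS library. These were mice 5, 7 and 21, the same 3 HH libraries that held 3 or more log2 CPM of excitatory neuron markers.

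Among the orphan nuclear receptors of this list, Nr4a3 (chr4:48045153-48086447) measured 32.3 to 53.8 CPM in HH with a median of 44.8, and 24.0 to 42.4 CPM in HS with a median of 28.8. Its log2 difference was 0.55 ± 0.17 (unadjusted p = 0.00301), and 5 HH libraries lay above the highest HS library. Nr4a1 (Nur77) measured 77.5 to 165.2 CPM in HH with a median of 121.7, and 47.5 to 110.5 CPM in HS with a median of 84.3. Again 5 HH libraries were above every HS library, and the difference was 0.52 ± 0.18 (p = 0.0058).

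Of the AP-1 subunits, Fosl2 (chr5:32135801-32157842) measured 73.4 to 134.3 CPM in HH with a median of 110.6, and 59.7 to 97.9 CPM in HS with a median of 69.7. Its log2 difference was 0.50 ± 0.17 (unadjusted p = 0.00548). Fos itself, the usual marker of recently active neurons, measured 10.3 to 30.9 CPM in HH with a median of 25.8, and 5.63 to 21.5 CPM in HS with a median of 15.6. For Fos the difference was 0.66 ± 0.25 (p = 0.0111), and 5 HH libraries were above the HS range. Fosb differed by 0.31 ± 0.15 (p = 0.0438). The stress-inducible factor Atf3 was scarce, at 0.814 to 4.00 CPM in HH and 0.354 to 2.03 CPM in HS, with a difference of 1.12 ± 0.38 (p = 0.00527). Dusp4, a phosphatase that switches off MAP kinases, differed by 0.33 ± 0.14 (p = 0.0221).

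The other immediate early genes had an unadjusted p of 0.05 or more, and 5 of the 36 were lower in HH. Egr2 measured 4.32 to 11.3 CPM in HH and 4.39 to 9.73 CPM in HS, a difference of 0.07 ± 0.24 (p = 0.759). Egr3 and Homer1 stood at -0.04 and -0.03, and Arc, a synaptic effector, at 0.32 ± 0.18 (p = 0.084). The cAMP response element TGACGTCA was found in 4 of the 26 immediate early genes with a promoter (15.4%), against 2.86% of tested genes. The CArG box bound by serum response factor was found in 2 (7.69%), against 1.44%. GAANNTTC and the glucocorticoid element ACANNNTGT were each found in 4 (15.4%), against 6.14% and 4.77%. No cAMP response element or CArG box was found in the 7 genes with an unadjusted p under 0.05.

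The level of immediate early genes went with excitatory neuron markers across libraries. Over the 16 HH and HS libraries Pearson's r between the mean levels of both lists was 0.88 (Spearman's rho 0.77), and over the 10 libraries under 3 log2 CPM of excitatory markers it was 0.27. These correlations are descriptions: the libraries fall into a low and a high cluster of excitatory markers, and both measures come from the same library. Of the 14 excitatory markers tested, 13 were higher in HH and 0 had an unadjusted p under 0.05, with a median log2 difference of 0.56 (0.24 without HH mouse 5). Slc17a7, the vesicular glutamate transporter VGLUT1 of cortical neurons, ranged from 5.23 to 304.4 CPM in HH and from 2.27 to 121.1 CPM in HS. When the libraries at 3 or more were left out in all 4 groups, a choice made after seeing the data, 5 HH and 5 HS libraries remained and the immediate early list had 28 of 36 genes higher, 7 at an unadjusted p under 0.05 and a median of 0.13. In that subset Fos differed by 0.75, Nr4a3 by 0.63, Fosl2 by 0.50 and Nr4a1 by 0.50, while Atf3 stood at 0.86 with an unadjusted p of 0.063 and Egr2 at -0.02. The heat shock list had 18 of 20 genes higher, with 7 at an unadjusted p under 0.05 and a median of 0.18. The part of cortical tissue in the remaining differences was not tested.

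**Figure D2:**
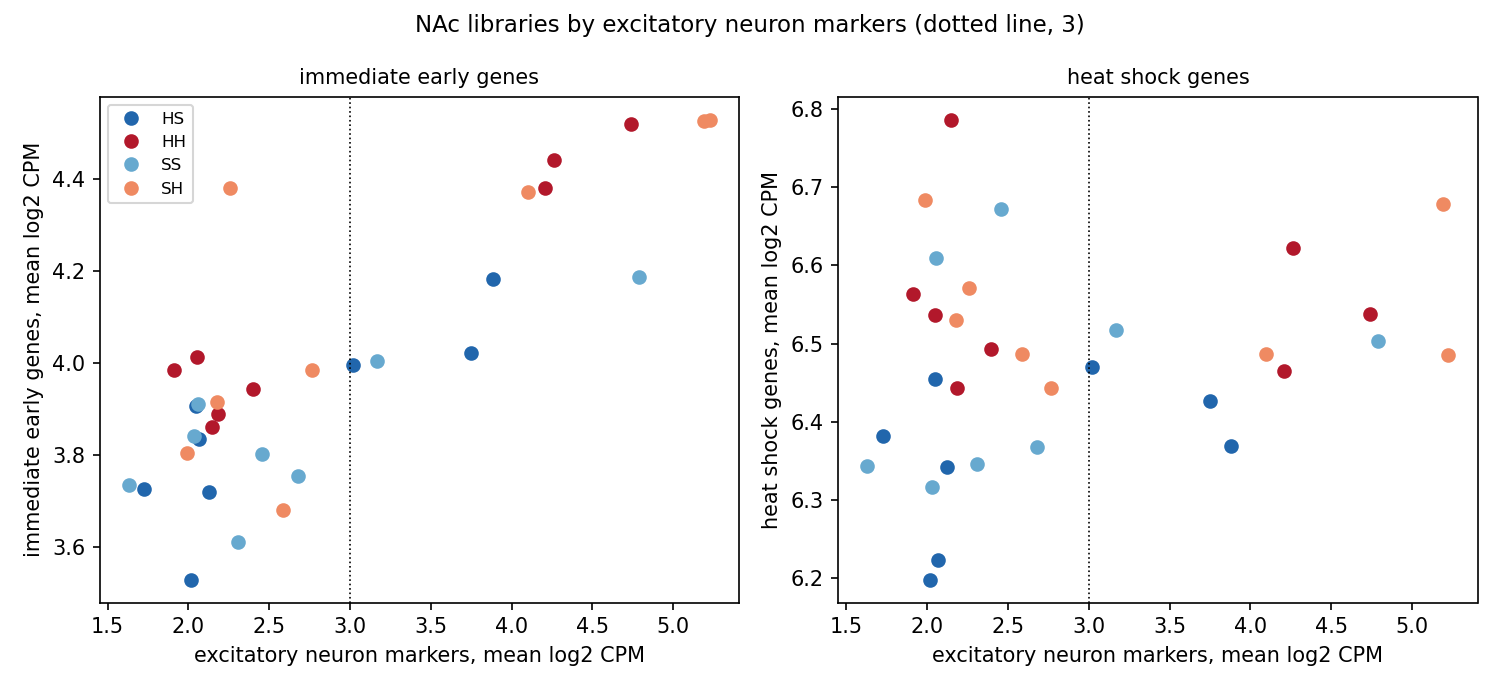
Mean log2 CPM of immediate early genes (left) and heat shock genes (right) against that of excitatory neuron markers in the 32 NAc libraries, coloured by group; the dotted line marks 3 log2 CPM. Immediate early levels were high where excitatory markers were high, with an r of 0.88 over the HH and HS libraries, while 6 of 8 HH libraries exceeded every HS library in heat shock genes.

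Glucocorticoid-responsive genes were another stress-linked list. Of 27 tested, 19 were higher in HH, 4 of them with an unadjusted p under 0.05, and 1 was lower with an unadjusted p under 0.05, while the median log2 difference was 0.04 (background 1.33% for higher and 1.37% for lower genes, with 49% of all genes on the higher side). Without HS mouse 11 the median was 0.02 and 15 of the 27 were higher. In SH against SS the list leaned the other way, with 6 higher and 21 lower and a median of -0.05 (47.5% of all genes on the higher side). There 2 of the lower and 0 of the higher genes had an unadjusted edgeR p under 0.05, against 3.39% of all genes either way. Zbtb16 (PLZF, a zinc finger repressor) measured 25.7 to 51.95 CPM in HH with a median of 43.9, and 26.8 to 40.5 CPM in HS with a median of 34.6. Although 6 HH libraries exceeded every HS library, 1 HH library lay below them all, and the difference was 0.34 ± 0.11 (p = 0.00494). Tsc22d3 (GILZ, an anti-inflammatory glucocorticoid target) measured 124.4 to 169.3 CPM in HH and 92.1 to 150.3 CPM in HS, a difference of 0.24 ± 0.09 (p = 0.0106). Bcl6 differed by 0.30 ± 0.12 (p = 0.0177) and the cell cycle inhibitor Cdkn1a by 0.49 ± 0.20 (p = 0.021). Angptl4, a secreted inhibitor of lipoprotein lipase, was the member on the lower side, at -0.50 ± 0.18 (p = 0.00954). Fkbp5, the standard readout of glucocorticoid receptor activity, stood at 50.0 to 74.2 CPM in HH and 49.1 to 60.9 CPM in HS, a difference of 0.11 ± 0.08 (p = 0.164), and Sgk1 at -0.13 ± 0.09 (p = 0.134).

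**Figure D3:**
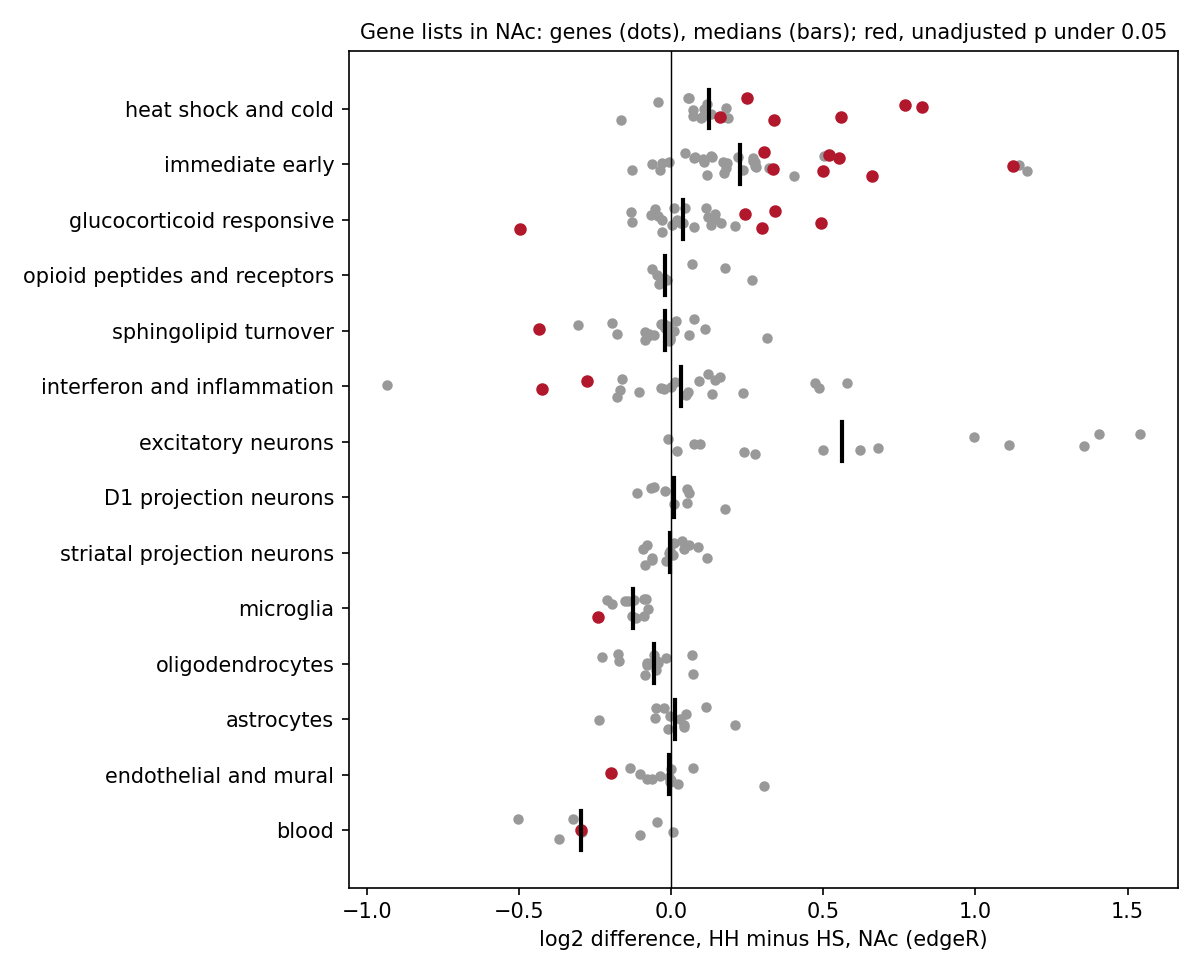
Log2 difference (HH minus HS) of every tested gene in 14 lists, with the list median as a bar and genes with an unadjusted p under 0.05 in red. The medians were 0.12 for heat shock and cold genes, 0.23 for immediate early genes, 0.56 for excitatory neuron markers, -0.13 for microglial markers and -0.30 for blood markers.

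Beyond those lists, the genes with the smallest p on the higher side had varied roles. Stk16, a membrane-anchored serine/threonine kinase of the Golgi (ENSMUSG00000026201, chr1:75210838-75215606), measured 35.5 to 40.8 CPM in HH with a median of 36.9, and 27.2 to 35.2 CPM in HS with a median of 32.5. Its groups did not overlap, which was true of 1 gene (0.00506%) with HH above HS and of 0 genes with HH below HS. With 19756 genes tested, 1 such gene can arise without any difference. Mouse 8 of SS, which received no heroin, stood at 40.9 CPM. The log2 difference was 0.22 ± 0.07 (unadjusted p = 0.0025), a ratio of 1.16. Tinagl1, a secreted protein of the extracellular matrix (chr4:130164454-130175122), measured 9.40 to 15.5 CPM in HH with a median of 11.6, and 6.89 to 11.0 CPM in HS with a median of 7.24. Of its HH libraries 5 exceeded the HS range, and the difference was 0.57 ± 0.14 (p = 0.000358).

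Adamts9, a secreted protease of the matrix, measured 5.61 to 8.98 CPM in HH and 3.69 to 6.12 CPM in HS, with 7 HH libraries above the HS range and a difference of 0.57 ± 0.17 (p = 0.00166). The kinase gene Map3k19 differed by 0.46 ± 0.13 (p = 0.0013) and Ppp1r3f, which targets protein phosphatase 1 to glycogen, by 0.40 ± 0.12 (p = 0.00254). Zbtb40, Fbxo34 and the dipeptidase gene Pepd completed the 12 lowest p-values on this side, at 0.28, 0.19 and 0.30. All 24 genes with the lowest p-values, 12 on each side, kept an unadjusted p under 0.05 when any one of the 16 libraries was left out. They were picked for a low p in these same libraries, so this outcome was largely set by that choice and is no separate support.

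Dio2 encodes the deiodinase that turns thyroxine into active triiodothyronine, in the brain mainly in astrocytes and tanycytes. It measured 74.5 to 119.3 CPM in HH with a median of 94.1, and 57.1 to 96.7 CPM in HS with a median of 68.2. Every HH library exceeded the HS mean, 3 exceeded the HS range, and the difference was 0.41 ± 0.14 (p = 0.00449). In a list of 15 thyroid hormone genes the median was 0.01, and the nuclear receptor genes Thra and Thrb stood at 0.04 and -0.02. Dio2 was the member with an unadjusted p under 0.05 (background 1.33% for higher genes). Its promoter is shown with the cAMP response element TGACGTCA in capitals, a string found in 2.86% of tested genes with a promoter:
Dio2 promoter, chr12:90739039-90739288, minus strand: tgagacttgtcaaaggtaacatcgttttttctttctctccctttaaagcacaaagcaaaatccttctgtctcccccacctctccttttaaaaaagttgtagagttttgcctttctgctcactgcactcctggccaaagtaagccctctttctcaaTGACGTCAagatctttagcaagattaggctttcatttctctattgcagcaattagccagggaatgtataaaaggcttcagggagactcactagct

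On the lower side the smallest p under the same limits belonged to Cdkl4, a kinase related to cyclin-dependent kinases (chr17:80523550-80577813). It measured 5.08 to 7.67 CPM in HH with a median of 6.78, and 7.66 to 10.3 CPM in HS with a median of 8.98. The groups met at a single library, 7 of 8 HH libraries lying below the lowest HS library, and the difference was -0.45 ± 0.12 (unadjusted p = 0.000455). Fbxl4, which restrains mitochondrial degradation, measured 16.5 to 20.4 CPM in HH and 19.7 to 26.3 CPM in HS, a difference of -0.29 ± 0.08 (p = 0.00076). The TGF-beta receptor kinase gene Tgfbr1 differed by -0.22 ± 0.08 (p = 0.0054).

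Acer2, a Golgi ceramidase that releases sphingosine (chr4:86874396-86934822), measured 10.9 to 21.2 CPM in HH with a median of 13.7, and 12.4 to 31.1 CPM in HS with a median of 19.2. These ranges overlapped, and 3 HH libraries lay below the HS range. The difference was -0.43 ± 0.14 (p = 0.00459). Among 25 sphingolipid genes tested 19 were lower, with 49% of all genes on the higher side, and the list median was -0.02. Acer2 was the member with an unadjusted p under 0.05 (background 1.37% for lower genes). Lower still in relative terms were scarce transcripts: Rbpms2 at -0.78 ± 0.27, Fhl4 at -0.75 ± 0.24, Cracr2a at -0.57 ± 0.19 and Efcab7 at -0.54 ± 0.18, each with an HH median under 3 CPM.

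Microglial markers stood slightly lower. The mean level of 12 microglial markers was 4.76 to 5.18 log2 CPM in HH and 4.88 to 5.56 in HS. All 12 were lower in HH, with a median log2 difference of -0.13, and 1 had an unadjusted p under 0.05 (background 1.37% for lower genes). Without HS mouse 14 the median was -0.06 and 2 of the 12 were higher. The gene with the low p was P2ry12, the purinergic receptor of resting microglia, at 25.3 to 37.6 CPM in HH and 30.6 to 41.2 CPM in HS, a difference of -0.24 ± 0.11 (p = 0.0315). The inhibitory collagen receptor Lair1, carried by immune cells, differed by -0.40 ± 0.14 (p = 0.00645), and Ifnar2, a subunit of the type I interferon receptor, by -0.28 ± 0.09 (p = 0.00218). In the list of 22 interferon and inflammation genes 12 were higher and 10 lower (49% of all genes higher). The 2 with an unadjusted p under 0.05, Gbp3 and Ifit3, stood at -0.43 and -0.28 (background 1.37% for lower genes). Blood markers were lower for 7 of 8 genes, with 49% of all genes on the higher side. Their median was -0.30 (-0.12 without HS mouse 14), and their mean level was 2.09 to 3.25 log2 CPM in HH and 2.52 to 3.54 in HS. Hbb-bs, a beta-globin chain, measured 43.1 to 62.7 CPM in HH and 49.8 to 93.1 CPM in HS, a difference of -0.30 ± 0.11 (p = 0.00897). Without the libraries at 3 or more log2 CPM of excitatory markers, 4 of 8 blood genes were higher, Hbb-bs stood at -0.11 and the median at 0.02, while 11 of 12 microglial markers were lower.

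Among the listed opioid and dopamine genes, Th was the member with an unadjusted p under 0.05 (background 2.7%). Of 8 opioid peptide and receptor genes tested 3 were higher and 0 had an unadjusted p under 0.05, with a median of -0.02. Oprm1, the mu receptor, measured 19.8 to 30.8 CPM in HH with a median of 22.7, and 18.8 to 31.0 CPM in HS with a median of 25.6, a difference of -0.02 ± 0.10. Oprk1, the kappa receptor, stood at -0.03 ± 0.11, and both signs turned in the subset without libraries high in excitatory markers. Pdyn, the precursor of the dynorphins that act on kappa receptors, measured 216.6 to 331.1 CPM in HH and 200.1 to 288.8 CPM in HS, a difference of 0.17 ± 0.12 (p = 0.147), and the enkephalin gene Penk 813.2 to 1081 CPM against 906.0 to 1156 CPM, a difference of -0.06 ± 0.08 (p = 0.44). The dopamine receptor genes overlapped as fully, Drd1 at -0.06 ± 0.08 and Drd2 at 0.05 ± 0.08. Th, the dopamine-synthesising enzyme, whose transcript is scarce in the accumbens, measured 7.51 to 13.6 CPM in HH and 11.3 to 17.0 CPM in HS, a difference of -0.30 ± 0.11 (p = 0.012). No p in this group passed adjustment, and a p that misses the threshold does not show equal levels.

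Other lists held few members with a low p. Among 21 GABA signalling, 24 chromatin and 20 hypoxia and glycolysis genes, 0 had one. Vip, an interneuron peptide that is also cortical, differed by 1.06 ± 0.51 (p = 0.0432), and by 0.19 without the libraries high in excitatory markers. Nkx2-1, a marker of septal and ventral forebrain neurons, stood at 0.446 to 1.36 CPM in HH and 0.822 to 1.96 CPM in HS, a difference of -0.62 ± 0.25 (p = 0.0184).

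The same challenge in mice with a saline history gave a partly shared picture. HH against HS and SH against SS share no library, although they share the estimate of spread. SH against SS called 1 gene of 19756 (0.00506%), Acer2, which fell by 0.82 on the log2 scale (adjusted p = 0.035, edgeR), while 670 genes had an unadjusted p under 0.05 (3.39%). In SH against SS 31 of 36 immediate early genes were higher, with 14 at an unadjusted p under 0.05 (all higher; background 1.35%, and 47.5% of all genes on the higher side) and a median of 0.21. In the same comparison 13 of 14 excitatory markers were higher, 1 with an unadjusted p under 0.05, with a median of 0.68, and their part in the immediate early difference was not tested. Differences in HH and SH stood side by side at 0.55 and 0.65 for Nr4a3, 0.50 and 0.67 for Fosl2, 0.66 and 0.79 for Fos and 1.12 and 1.10 for Atf3. The values were 0.41 and 0.53 for Dio2, 0.57 and 0.45 for Tinagl1, 0.46 and 0.47 for Map3k19 and -0.43 and -0.82 for Acer2. Some of these genes were placed on the lists because they led the saline-history comparison in earlier results of these data.

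Across the 14916 genes averaging 1 CPM or more, the 2 sets of log2 differences correlated at r = 0.29 and had the same sign for 59.1%, genes not being independent replicates. Of the 398 of these genes with an unadjusted p under 0.05 in HH against HS, 73.1% had the same sign in SH against SS. An unadjusted p under 0.05 in both with the same sign was found for 41 genes and with opposite signs for 10. The genes in both made up 12.8% of the 398 and 10.6% of the 483 found in SH against SS. Over all 19756 genes tested, 3.39% had one in SH against SS and 2.7% in HH against HS. Of the 24 genes with the lowest p-values in HH against HS, 22 had the same sign in SH against SS. Excitatory markers were higher with heroin in both comparisons, with medians of 0.56 and 0.68. Their part in the shared direction was not tested.

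**Figure D4:**
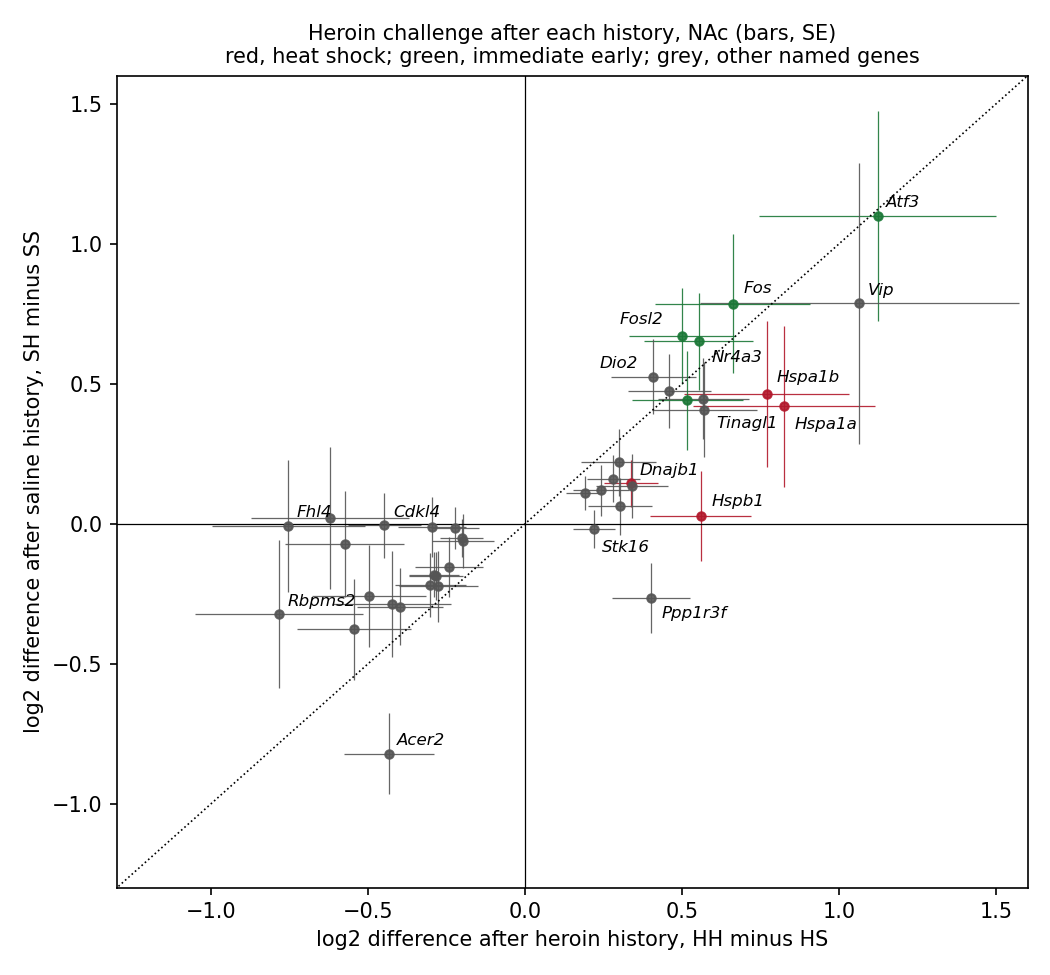
Log2 difference to the heroin challenge after a heroin history (HH minus HS, x axis) and after a saline history (SH minus SS, y axis) for the named NAc genes, with SE bars and the line of equality. Immediate early genes lay near the line, with Nr4a3 at 0.55 and 0.65, and Hspb1 lay near the x axis, at 0.56 and 0.03. Other heat shock genes were also higher after a saline history: Hspa1a averaged 3.83 CPM in SH and 2.87 in SS, and Hspa1b 10.4 and 7.56.

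A test of the difference between the histories called 0 of 19756 genes (0%) with edgeR, with 374 (1.89%) at an unadjusted p under 0.05 and a smallest adjusted p of 0.9996; DESeq2 also called 0. The heat shock list, with 18 of 20 genes higher and a median of 0.12 in HH against HS, had 15 of 20 higher, 0 at an unadjusted p under 0.05 and a median of 0.04 in SH against SS. The heroin minus saline difference of Hspb1 was 0.53 ± 0.23 larger after a heroin history (unadjusted p of the difference 0.024). For Dnajb1 and Stk16 it was larger by 0.19 ± 0.12 (p = 0.117) and 0.24 ± 0.10 (p = 0.0168). Cdkl4 had a difference between histories of -0.44 ± 0.16 (p = 0.0103). These genes were picked for a low p in HH against HS, which is part of this difference, so the p-values are not separate support. For Hspb1, Dnajb1 and Stk16 the median was lowest in HS, and for Cdkl4 it was lowest in HH. Median CPM in HH, HS, SH and SS was 11.9, 8.13, 10.14 and 10.02 for Hspb1. It was 74.5, 62.9, 76.9 and 66.3 for Dnajb1 and 36.9, 32.5, 33.6 and 34.01 for Stk16. The part of the low HS levels in the difference between histories was not tested.

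The genes with the smallest p for that difference had opposite signs in the 2 histories. Ppp1r3f stood at 0.40 in HH against HS and -0.26 in SH against SS, and Col23a1, a membrane-spanning collagen, at 0.43 and -0.31. Xdh, the purine-degrading xanthine dehydrogenase, stood at 0.04 and -0.47, a difference of 0.51 ± 0.14 (p = 0.000674), and DESeq2 called it in SH against SS. Lacc1, an enzyme of macrophages, stood at -0.14 and 0.55, and Mrps28, a mitochondrial ribosomal protein, at -0.17 and 0.36. Xlr3b, a member of an X-linked family of similar copies whose reads are uncertain, stood at -1.44 and 0.94, with HH libraries at 0.11 to 2.63 CPM and HS libraries at 0.646 to 5.79 CPM.

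The same mice also supplied dorsal striatum (dStri) and prefrontal cortex (PFC) libraries. HH against HS called 0 of 19492 genes (0%) in dStri, where 842 (4.32%) had an unadjusted p under 0.05, and 5 of 19976 (0.025%) in PFC, where 1327 (6.64%) had one. A test of NAc against each region, with mouse as a block, called 0 of 19816 genes (0%) for dStri, with 680 (3.43%) at an unadjusted p under 0.05, and 0 of 20139 (0%) for PFC, with 807 (4.01%). Their smallest adjusted p-values were 0.127 and 0.202. DESeq2 was not run on these comparisons.

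Several differences recurred in the other regions of these mice. Dnajb1 stood at 0.34 in NAc, 0.40 in dStri and 0.21 in PFC, and Hspa1a at 0.82, 0.99 and 0.45. Nr4a3 stood at 0.55, 0.60 and 0.41, Fosl2 at 0.50, 0.48 and 0.40, and Acer2 at -0.43, -0.39 and -0.44. Fosl2 and Nr4a1 passed the adjusted threshold in PFC (adjusted p = 0.0292 and 0.0249), where Nr4a1 stood at 0.64. Egr2, which also passed there at 0.88 (adjusted p = 0.0147), differed by 0.86 ± 0.18 less in NAc than in PFC, with an adjusted p of 0.202 for that difference.

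The gene with the smallest p between striatal regions was Tinagl1. It stood at 0.57 in NAc and -0.18 in dStri, a difference of 0.74 ± 0.13 with an adjusted p of 0.127. On the other side were Fbxo30, at -0.06 in NAc and 0.48 in dStri, and Cdc42ep3, at -0.06 and 0.28. Dio2 stood at 0.41 in NAc, 0.01 in dStri and 0.43 in PFC, with an unadjusted p of 0.0062 for the difference between the striatal regions. Against PFC, Cdkl4 stood at -0.45 in NAc and -0.03 in PFC (unadjusted p of the difference 0.000399), Col23a1 at 0.43 and -0.28, and Col1a1, a fibrillar collagen, at 0.41 and -0.92. Without HH mouse 18 the NAc difference of Col1a1 was 0.19. Tinagl1, Dio2 and Cdkl4 were among the genes with the lowest p in HH against HS in NAc. The region tests contain that difference, so their p-values for these genes are not separate support.

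**Figure D5:**
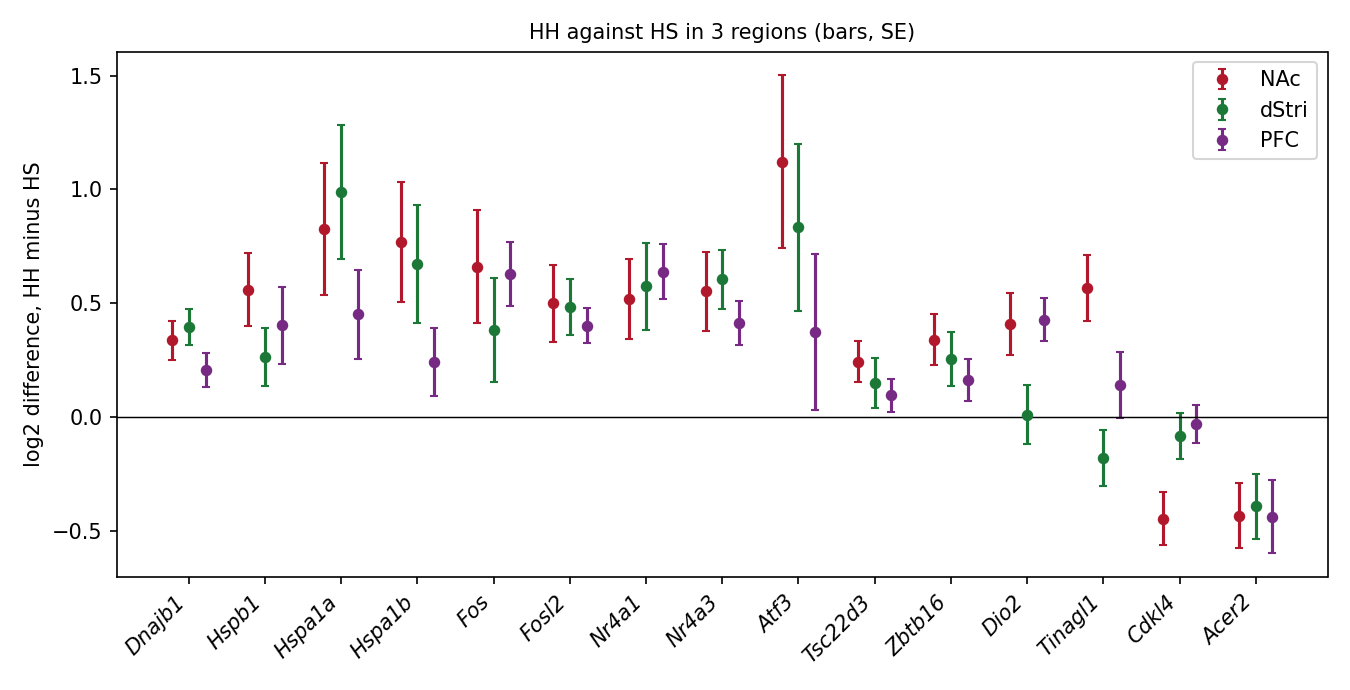
Log2 difference (HH minus HS, bars SE) of 15 genes in NAc, dStri and PFC of the same mice, each from a fit within its region. Dnajb1 stood at 0.34, 0.40 and 0.21, while Tinagl1 stood at 0.57 in NAc and -0.18 in dStri.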

How the data were processed

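Bulk RNA-seq libraries were made from total RNA with an rRNA-depleted, strand-specific kit and 2x150 bp reads, per the labels' protocols. FastQC, HISAT2, SAMtools, HTSeq and mm10 are named in the submitters' processing notes; versions, annotation release and strand setting are not given in the sources used here. The authors deposited a table of whole-number read counts per gene, which was used as it stands. Columns were matched to samples by the code in the sample title. Genes were filtered with filterByExpr (minimum count 10), scaled by TMM and fitted with edgeR 4.0.16 (glmQLFit and glmQLFTest, 1 coefficient per group) in R 4.3.3 over the 32 NAc libraries of HH, HS, SH and SS; region tests used HH and HS with mouse as a block. P-values were adjusted by Benjamini-Hochberg over all genes tested, with a threshold of 0.05. Of 52636 genes, 19756 were tested, and 497 of 528 listed genes were among them. DESeq2 1.42.0 was an alternative.

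Named genes were the 12 with the smallest p each way at a mean of at least 1 CPM, up to 4 members per list with an unadjusted p under 0.05, 12 fixed genes, and 3 each way for the other comparisons; Gm26315 and further list members, named as examples of their list, were picked with their values in view. The comparison, the lists and the rules were chosen with earlier results of these data known. The fit was checked on simulated counts. Each library came from its own mouse by the mouse number in the labels, and no same-group pair agreed within counting noise (chi-square per degree of freedom at least 10.6 over 56 pairs). NAc, dStri and PFC libraries were paired because they carry the same mouse number. Residuals of the same mouse correlated at a median of 0.04 between NAc and dStri and 0.03 between NAc and PFC. Some genes that the naming rule would include are not reported here.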

Additional observations from a re-analysis of the deposited data

Results flagged for a closer look

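Within a group of 8 mice, a library was marked where its gap to the nearest other, divided by the group's range, exceeded Dixon's 95% critical value. Chance marks about 1 in 20 groups; here 14 of 192 (7.29%) were marked. Mouse 25 of HH was far above the others for Hspa1a (ratio 0.666, 10.3 CPM against 4.83 for the next) and its near-identical copy Hspa1b (0.553, 20.8 against 12.5 CPM). Mouse 13 of HS was high for Atf3 (0.572, 2.03 against 1.07 CPM), and mouse 12 of HS was low for Fbxo34 (0.556, 39.6 against 45.3 CPM). For Drd1, mouse 21 of HH was high (0.616, 456.9 against 397.4 CPM) and mouse 14 of HS low (0.555, 333.3 against 389.4 CPM). Mouse 18 of HH was high for Col1a1 (0.688, 7.64 against 4.04 CPM).

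Among mean list levels, mouse 14 of HS was high for interneuron (0.636) and microglial markers (0.610), mouse 12 of HS for ependymal markers (0.559) and mouse 3 of HS for meningeal fibroblast markers (0.590). Mouse 11 of HS was low for G protein and cAMP genes (0.557), mouse 1 of HH high for astrocyte markers (0.747) and mouse 21 of HH low for choroid plexus markers (0.644). No difference between histories or regions passed an adjusted threshold.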

How the results depend on the processing

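HH against HS called 0 genes under every alternative run (DESeq2, its size factors, both filters, the 16 libraries alone, mouse set, cell marker scores, and leaving out each library). The tests between histories and regions likewise called 0 under each of theirs, including no replicate block, which gave 546 genes at an unadjusted p under 0.05 for dStri and 736 for PFC. SH against SS called 2 genes with DESeq2 and 0 in mice of set 1 (a code prefix in the labels). Some small differences turned sign. Without the libraries high in excitatory markers, a setting added after seeing the data, Egr2 stood at -0.022, Oprm1 at 0.11, Oprk1 at 0.091, Fbxo30 at 0.020 and Syndig1l at 0.021. In set 1 Oprm1 stood at 0.040, Oprk1 at 0.027 and Xdh at -0.00664. With marker scores as covariates Cdc42ep3 stood at 0.018 (both scores) and 0.013 (excitatory score), and Syndig1l at 0.0022 (excitatory score). Leaving out 1 library gave -0.012 to 0.17 for Egr2, -0.069 to 0.032 for Oprm1, -0.11 to 0.042 for Oprk1, -0.0049 to 0.083 for Xdh and -0.055 to 0.037 for Syndig1l. The cause was not tested. The 8 mice a group and a median biological coefficient of variation of 0.18 limit what could be detected.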
